A study of Mus musculus with 6 samples.

Results

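Genes for the C-type lectin receptors of myeloid cells were described in microglia of the 5xFAD mouse with and without interleukin-3. The genes were chosen by symbol: Clec7a, Clec4n, Clec4d, Clec4e, Clec5a, Clec4a2, Clec12a, Clec4a1, Clec4a3 and Clec2d, 10 of the 20129 genes in the deposited table. All 10 were found there, and all 10 passed the filter on low values, at least 1 CPM (counts per 1000000 reads) in at least 3 of the 6 libraries, which 11900 genes passed. The study compared 5xFAD mice, which carry mutant human transgenes driven by the neuronal Thy1 promoter and deposit amyloid in the brain, with 5xFAD mice that also lack interleukin-3 (Il3-/-5xFAD). Both groups were C57BL6/J mice aged 5 months and both carried the 5xFAD transgenes, so neither group shows microglia of a brain without amyloid. The sources used here do not describe how the Il3 allele was made. Each of the 3 libraries per genotype came from 4 mice whose cells were pooled, 2 of each sex. Live cells positive for CD45 and CD11b were sorted from enzyme-digested brain, a gate that other myeloid cells of the brain and blood also meet. The 5xFAD libraries carried replicate numbers 4, 5 and 6 and the Il3-/-5xFAD libraries 1, 2 and 3, so no number was shared.

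C-type lectin receptors are surface proteins with a fold that in some members binds sugars of microbes or of damaged cells. The activating members signal through the kinase Syk and the adaptor Card9, either by a tyrosine motif in their own tail (Dectin-1) or through a partner chain, the Fc receptor gamma chain encoded by Fcer1g or DAP12 encoded by Tyrobp. Inhibitory members carry a tyrosine motif in the tail that recruits phosphatases such as the one encoded by Ptpn6. In brains with amyloid, Clec7a is widely used as a marker of microglia near plaques.

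All 10 genes lay on chromosome 6 in the RefSeq gene order of GRCm38.p6. Clec4n, Clec4d and Clec4e followed each other with no coding gene between them, as did Clec4a1 and Clec4a3, while 627 coding genes separated Clec5a from the next member. Promoter sequences from RefSeq (GRCm38.p6, another build than the mm9 named in the submitters' processing notes) were found for 9 of the 10, all but Clec4n, taking the first start site listed for a gene and running from 250 bases before it to 50 after it. Searches were made for 5 motifs on both strands. The first was the core GAGGAA, a form bound by PU.1, the ETS factor of the myeloid lineage; 6 of the 9 promoters held it, as did 28.3% of 27025 RefSeq promoters of this length. These 6 were the promoters of Clec7a, Clec4d, Clec4e, Clec5a, Clec12a and Clec4a1. The STAT core TTCNNNGAA was found in 1 of the 9 promoters, that of Clec4a2, and in 8.47% of all promoters. The C/EBP form TTGCNNAA was found in 2 of the 9 (Clec12a and Clec4e) and in 10.8% of all, and the AP-1 form TGANTCA in 2 of the 9 (Clec12a and Clec4a2) and in 7.93% of all. The TATA box form TATAAA was found in 4 of the 9 (Clec4a2, Clec4e, Clec5a and Clec7a) and in 14.2% of all. These matches, on either strand, began at -161, -29, -209 and 43 from the start site, in that order. A match describes the letters only, and no binding was measured here. The promoters of 3 members are shown with GAGGAA or its reverse complement in capitals: Clec7a, the member that fell; Clec4e, the member with the largest log2 difference; and Clec5a, an abundant member with a narrow interval around 0.
Clec7a, chr6:129472730-129473029, minus strand: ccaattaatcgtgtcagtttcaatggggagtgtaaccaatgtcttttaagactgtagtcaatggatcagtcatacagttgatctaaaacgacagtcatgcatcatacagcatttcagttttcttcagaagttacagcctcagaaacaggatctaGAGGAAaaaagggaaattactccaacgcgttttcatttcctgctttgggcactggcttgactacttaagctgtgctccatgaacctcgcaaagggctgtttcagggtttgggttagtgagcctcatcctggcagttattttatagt
Clec4e, chr6:123289822-123290121, minus strand: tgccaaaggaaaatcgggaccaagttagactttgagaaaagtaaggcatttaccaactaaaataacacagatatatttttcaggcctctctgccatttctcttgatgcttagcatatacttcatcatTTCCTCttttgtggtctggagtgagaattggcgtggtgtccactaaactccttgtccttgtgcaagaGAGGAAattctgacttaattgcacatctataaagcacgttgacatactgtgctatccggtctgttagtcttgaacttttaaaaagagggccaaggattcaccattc
Clec5a, chr6:40585756-40586055, minus strand: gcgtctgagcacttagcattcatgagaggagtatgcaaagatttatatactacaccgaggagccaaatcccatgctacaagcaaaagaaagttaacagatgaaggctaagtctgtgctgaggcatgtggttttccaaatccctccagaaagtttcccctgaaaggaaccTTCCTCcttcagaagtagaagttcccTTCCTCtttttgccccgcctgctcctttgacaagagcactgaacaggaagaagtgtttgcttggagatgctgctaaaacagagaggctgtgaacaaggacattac
The core lay at -96 from the start site in Clec7a, at -123 and -56 in Clec4e and at -81 and -55 in Clec5a. Members whose promoters held the core had log2 differences between genotypes from -1.26 (Clec4e) to -0.09 (Clec5a). The promoters without it were those of Clec4a2, Clec4a3 and Clec2d, with log2 differences of -0.06, -0.07 and -0.19. Whether the core goes with the difference was not tested.

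The libraries held 27970850 to 37605490 reads in the table, so 1 read was worth 0.0266 to 0.0358 CPM. The targeted gene, Il3, was counted with 54, 61 and 29 reads in the 5xFAD libraries and with 0 reads in every Il3-/-5xFAD library, where a count of 0 allows up to 0.0909 to 0.107 CPM (3 reads; counting error only). All 10 microglial markers were present, with summed levels of 36436 to 38564 CPM in 5xFAD and 38109 to 41646 CPM in Il3-/-5xFAD. Of these markers 0 passed by limma, edgeR or DESeq2 (2 higher at an unadjusted limma p under 0.05). Of the 10, 1 had a log2 difference (Il3-/-5xFAD minus 5xFAD) below 0, and the median was 0.13. Nothing in the labels says more about the pools, so p-values measure the spread between 3 pools per genotype. In bulk RNA, fewer cells of a type and less RNA per cell cannot be told apart.

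Among the activating receptors, Clec7a fell in Il3-/-5xFAD. Clec7a encodes Dectin-1, the receptor for beta-glucans, and was the most abundant member. It was at 267, 349 and 346 CPM in 5xFAD replicates 4, 5 and 6 and at 118, 216 and 190 CPM in Il3-/-5xFAD replicates 1, 2 and 3. The groups did not overlap, and Il3-/-5xFAD replicate 1 was the lowest library. The means were 321 ± 46.4 and 175 ± 50.5 CPM (SD, n = 3), so the level without interleukin-3 was 54.4% of that in 5xFAD. The difference in log2(CPM + 1), Il3-/-5xFAD minus 5xFAD, was -0.91 ± 0.18 (SE; 95% interval -1.31 to -0.51; limma adjusted p = 0.0457 over all tested genes). These values rest on 3519 to 13002 reads per library. Clec7a was the 1 member of 10 that passed, where limma called 0.630% of all tested genes lower, 0.252% higher and 0.882% in either direction. The call was lost without 5xFAD replicate 5 (-0.84, limma adjusted p = 0.172) and without 5xFAD replicate 6 (-0.85, limma adjusted p = 0.269), and it held without any 1 of the other 4 libraries. DESeq2, which called 5.08% of all tested genes, called it (adjusted p = 0.0441), and edgeR, which called 0.504%, did not (adjusted p = 0.0812). In all, the call was lost in 10 of 17 other settings. With limma these were also median-ratio rescaling, quantile normalization and a filter on a mean of 5 CPM or more (adjusted p of 0.0660, 0.0633 and 0.0546), no filter, eBayes without trend and robust eBayes (0.257, 0.197 and 0.156), and the neutrophil marker covariate (0.999).

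**Figure D1:**
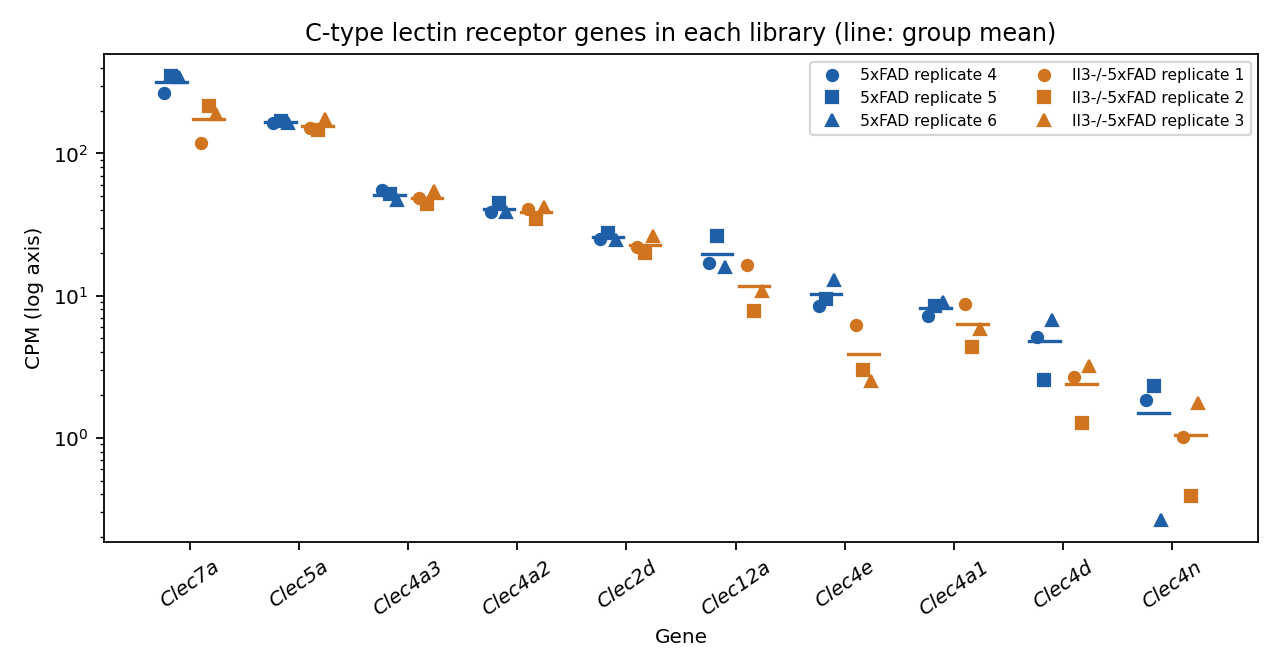
CPM of the 10 receptor genes on a log axis, ordered by their 5xFAD mean; each point is 1 library and each line a group mean. Clec7a and Clec4e are the members whose groups do not overlap, while the points of Clec5a lie between 145 and 174 CPM in both groups.

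Clec4e, which encodes Mincle, a receptor that pairs with the Fc receptor gamma chain and binds mycobacterial cord factor, was the other member whose groups did not overlap. It was at 8.40, 9.53 and 12.95 CPM in 5xFAD replicates 4, 5 and 6 and at 6.25, 2.98 and 2.52 CPM in Il3-/-5xFAD replicates 1, 2 and 3. Every 5xFAD library was above every Il3-/-5xFAD library, with Il3-/-5xFAD replicate 1 nearest to the 5xFAD libraries. The log2 difference was -1.26 ± 0.28 (SE; 95% interval -1.86 to -0.65), which did not pass (limma adjusted p = 0.0580). It passed by DESeq2 (-1.40, adjusted p = 0.00287) and, without Il3-/-5xFAD replicate 1, by limma (-1.57, adjusted p = 0.0143), but not by edgeR (adjusted p = 0.0939). Groups without overlap, seen for 2 of the 10 members and both times with lower levels in Il3-/-5xFAD, were found for 21.2% of all tested genes in either direction and for 11.5% with lower levels, so this count is near the background.

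Clec4d, whose protein MCL forms a pair with Mincle, was at 5.15, 2.56 and 6.75 CPM in 5xFAD replicates 4, 5 and 6 and at 2.69, 1.28 and 3.21 CPM in Il3-/-5xFAD replicates 1, 2 and 3. The groups overlapped because 5xFAD replicate 5 lay below 2 of the 3 Il3-/-5xFAD libraries. The log2 difference of -0.75 ± 0.33 did not pass (limma adjusted p = 0.276). Clec4n, which encodes Dectin-2, a receptor for fungal mannans, was the least abundant member, at 1.86, 2.32 and 0.266 CPM in 5xFAD replicates 4, 5 and 6 and 1.01, 0.391 and 1.76 CPM in Il3-/-5xFAD replicates 1, 2 and 3. The low 5xFAD value rests on 10 reads, in the library that was highest for the neighbouring genes Clec4d and Clec4e. The log2 difference was -0.21, with a 95% interval from -1.09 to 0.66. On the CPM + 1 scale this corresponds to 47.0% to 158% of the 5xFAD level. For a gene at so few CPM, the range in CPM itself is wider in both directions. Neither a large fall nor a large rise of Clec4n can therefore be told from no change at this depth and spread.

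Clec5a encodes MDL-1, which signals through DAP12. It was the most even of the abundant members, at 165, 170 and 164 CPM in 5xFAD replicates 4, 5 and 6 and 149.99, 145 and 174 CPM in Il3-/-5xFAD replicates 1, 2 and 3. The highest and the lowest value both came from Il3-/-5xFAD libraries, so the groups overlapped. The log2 difference was -0.09 ± 0.09 (limma adjusted p = 0.654). Its 95% interval, from -0.28 to 0.10, corresponds to 82.5% to 107% of the 5xFAD level on the CPM + 1 scale. The ratio of Clec7a to Clec5a within a library was 1.62, 2.06 and 2.10 in 5xFAD replicates 4, 5 and 6 and 0.788, 1.48 and 1.09 in Il3-/-5xFAD replicates 1, 2 and 3. These ratios did not overlap. This ratio was chosen after the values were seen, and no test result is given for it. Clec5a varied little, so the ratio largely restates the values of Clec7a.

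**Figure D2:**
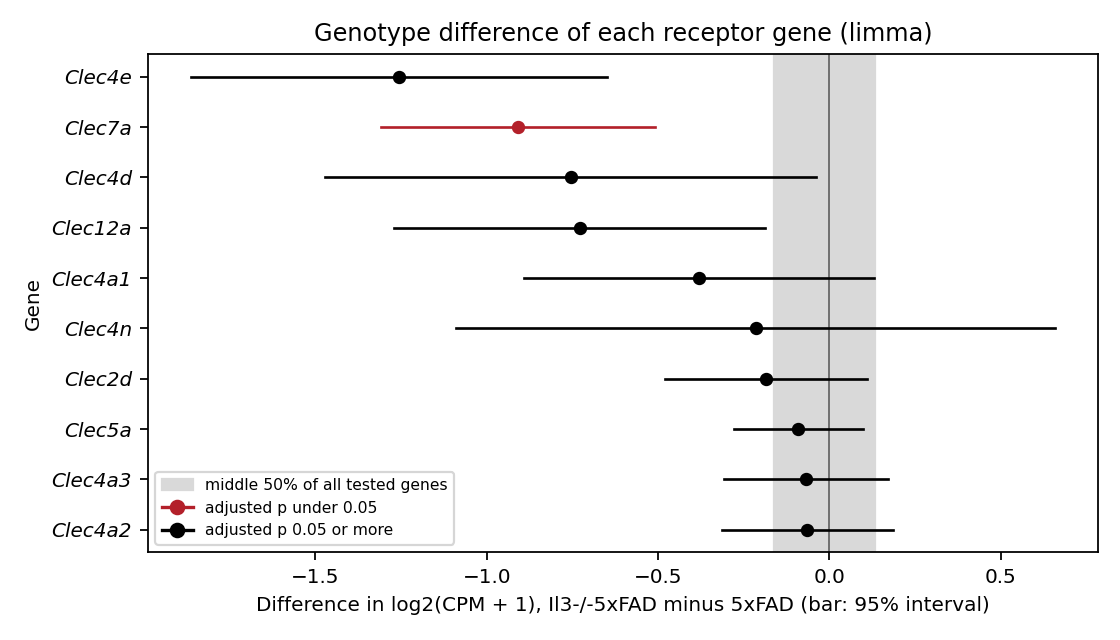
Difference in log2(CPM + 1) of each receptor gene, Il3-/-5xFAD minus 5xFAD, as the limma estimate with its 95% interval; the grey band spans the middle 50% of all tested genes, from -0.16 to 0.13. Clec7a at -0.91 is the member that passed, and Clec4e lies lower at -1.26 with a wider interval.

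Of the inhibitory receptors, neither passed. Clec12a encodes MICL, an inhibitory receptor of granulocytes and monocytes that recognises uric acid crystals. It was at 16.8, 26.2 and 16.0 CPM in 5xFAD replicates 4, 5 and 6 and at 16.4, 7.85 and 10.8 CPM in Il3-/-5xFAD replicates 1, 2 and 3. Il3-/-5xFAD replicate 1 lay above 5xFAD replicate 6, so the groups overlapped. The log2 difference was -0.73 ± 0.25 (limma adjusted p = 0.163). Clec4a2, which encodes the inhibitory receptor DCIR, was at 38.6, 44.7 and 38.9 CPM in 5xFAD replicates 4, 5 and 6 and 40.7, 34.5 and 41.8 CPM in Il3-/-5xFAD replicates 1, 2 and 3. The groups overlapped widely and the log2 difference was -0.06 ± 0.11 (95% interval -0.31 to 0.19; limma adjusted p = 0.835). Of the 50-base stretches in its GENCODE transcripts, 6.69% also occurred in other genes, most of them in Clec4a4 (3.85%), and no other member shared more than 1.98%.

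Clec4a1 and Clec4a3 are relatives of Clec4a2 in the DCIR family. Clec4a1 was at 7.15, 8.41 and 9.09 CPM in 5xFAD replicates 4, 5 and 6 and 8.70, 4.33 and 5.79 CPM in Il3-/-5xFAD replicates 1, 2 and 3 (log2 difference -0.38 ± 0.23, limma adjusted p = 0.448). Here too Il3-/-5xFAD replicate 1 lay within the range of the 5xFAD libraries. Clec4a3 was at 55.6, 51.9 and 46.7 CPM in 5xFAD replicates 4, 5 and 6 and 48.9, 44.1 and 54.1 CPM in Il3-/-5xFAD replicates 1, 2 and 3. The log2 difference was -0.07 ± 0.11 (limma adjusted p = 0.810). The libraries of both groups overlapped for this gene. The profiles of these neighbouring genes over the 6 libraries, each centred on its mean, lay 0.32 apart (root mean square, log2 units).

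Clec2d encodes Clr-b, a ligand for the inhibitory receptor encoded by Klrb1b on natural killer cells, rather than a receptor for sugars. It was at 24.8, 27.8 and 24.8 CPM in 5xFAD replicates 4, 5 and 6 and 22.0, 19.9 and 26.2 CPM in Il3-/-5xFAD replicates 1, 2 and 3. Il3-/-5xFAD replicate 3 lay within the 5xFAD range, and the log2 difference was -0.19 ± 0.13 (95% interval -0.48 to 0.11; limma adjusted p = 0.538). Klrb1b, named here because of that pairing, averaged 8.63 ± 1.35 CPM with interleukin-3 and 4.13 ± 1.22 CPM without it (SD, n = 3). Its groups did not overlap, and its log2 difference of -0.93 ± 0.23 did not pass (limma adjusted p = 0.0743).

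Over the 10 members the log2 differences ran from -1.26 (Clec4e) to -0.06 (Clec4a2), with a median of -0.30 against 0.00 over all tested genes. By limma 1 member was lower, 0 were higher and 9 did not pass; at an unadjusted p under 0.05, 4 were lower (Clec7a, Clec4e, Clec12a and Clec4d) and 0 were higher, and edgeR and DESeq2 also gave 4 and 0. Of all tested genes, 16.5% had such an unadjusted p by limma, counted in either direction. All 10 differences were below 0, as were 50.1% of those of all tested genes. That count became 3 of 10 with the mean level of the neutrophil markers as a covariate, described with those markers. It became 8 of 10 without 5xFAD replicate 5 and 7 of 10 without Il3-/-5xFAD replicate 2, where Clec4n and Clec4a2, and in the latter case Clec4a3, lay between 0.00 and 0.05.

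Levels of different genes were compared per kilobase of the longest GENCODE transcript. On this scale, in CPM per kilobase, Clec7a was the highest member in both groups, at 141 ± 20.4 in 5xFAD and 76.7 ± 22.2 in Il3-/-5xFAD (SD, n = 3). Clec5a followed at 44.4 ± 0.81 and 41.8 ± 4.15, then Clec4a3 at 39.5 ± 3.43 and 37.7 ± 3.82, Clec2d at 21.3 ± 1.41 and 18.7 ± 2.66 and Clec4a2 at 16.4 ± 1.39 and 15.7 ± 1.60. The ranges of these 5 genes over the libraries did not overlap between neighbours in 5xFAD, whereas in Il3-/-5xFAD Clec5a overlapped with Clec4a3 and Clec2d with Clec4a2. The lower members were Clec12a at 6.09 and 3.61, Clec4a1 at 5.27 and 4.03, Clec4d at 3.64 and 1.81, Clec4e at 2.14 and 0.815 and Clec4n at 1.06 and 0.749. In 5xFAD, neighbours in this lower part overlapped from Clec12a down to Clec4e, and in Il3-/-5xFAD all of them did. Clec7a made up 45.3%, 50.4% and 52.0% of the summed CPM of the 10 members in 5xFAD replicates 4, 5 and 6 and 28.5%, 45.3% and 37.2% in Il3-/-5xFAD replicates 1, 2 and 3.

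The genes whose profiles over the 6 libraries were most like that of Clec7a, among 9808 others with a mean of at least 5 CPM, were Chst2, Hspa12a and St8sia6. Chst2 encodes a sulfotransferase of glycans, Hspa12a a distant member of the Hsp70 family and St8sia6 a sialyltransferase. The centred log2(CPM + 1) profiles lay 0.086, 0.093 and 0.097 from that of Clec7a (root mean square over the 6 libraries), compared with 0.54 for the spread of Clec7a itself. Chst2 averaged 57.9 ± 10.6 CPM with interleukin-3 and 31.6 ± 10.2 CPM without it (SD, n = 3), and the log2 differences of the 3 genes were -0.89, -0.98 and -0.85, none of which passed (limma adjusted p of 0.0715, 0.0823 and 0.0660). For Clec4e, added after its values were seen, the nearest genes were Itgal, the alpha chain of the leukocyte integrin LFA-1, Emb, which encodes embigin, and Acap1, which encodes a GTPase-activating protein, at 0.11, 0.13 and 0.15. Itgal and Acap1 fell (-1.16 and -1.07, limma adjusted p of 0.0270 and 0.0469). The profiles compared include the genotype difference. A log2 difference near that of Clec7a or Clec4e therefore follows from how these genes were picked and is no independent result. No member was among the 3 nearest genes of Clec7a or of Clec4e, and the profiles of Clec7a and Clec4e lay 0.61 from each other. Clec4d and Clec4n, with means under 5 CPM, were not in that search. Measured separately, their profiles lay 0.60 and 0.74 from that of Clec7a and 0.54 and 0.91 from that of Clec4e.

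The partner chains and signalling genes of these receptors did not pass by limma. Of 28 tested genes of C-type lectin signalling, 0 were called in either direction by limma, 11 had a difference below 0 and the median was 0.06. At an unadjusted limma p under 0.05 there were 4 lower and 3 higher, where 16.5% of all tested genes had such a p in either direction. Of the list edgeR called 0, and DESeq2 called 2 lower, Tyrobp and the Src-family kinase gene Fgr. Fgr, named for that call, had the lowest log2 difference of the list (-0.79 ± 0.19, limma adjusted p = 0.0685). It averaged 38.0 ± 10.7 CPM with interleukin-3 and 21.0 ± 1.51 CPM without it (SD, n = 3), without overlap between the groups. Fcer1g, the partner of Dectin-2, MCL and Mincle, averaged 443 ± 52.2 CPM with interleukin-3 and 365 ± 37.4 CPM without it (SD, n = 3; log2 difference -0.28 ± 0.10, limma adjusted p = 0.208). Tyrobp, the DAP12 gene and partner of Clec5a, was at 994 ± 78.5 and 733 ± 167 CPM (-0.46 ± 0.14, limma adjusted p = 0.131), without overlap between the groups. Hcst, which encodes DAP10, was at 7.97 ± 1.92 and 6.21 ± 1.87 CPM. Downstream, Syk was at 347 ± 28.0 and 371 ± 32.9 CPM and Card9 at 129 ± 20.8 and 160 ± 10.8 CPM, with log2 differences above 0 (0.10 ± 0.09 and 0.32 ± 0.11, limma adjusted p of 0.644 and 0.169). Ptpn6, the phosphatase gene on the inhibitory side, was at 519 ± 8.99 and 493 ± 8.44 CPM (-0.08 ± 0.07, limma adjusted p = 0.658). Inpp5d, which encodes the lipid phosphatase SHIP1 and had the highest CPM of the list, was at 1034 ± 19.9 and 1175 ± 40.8 CPM (0.18 ± 0.08, limma adjusted p = 0.287).

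Other C-type lectin genes did not pass by limma either. Of the 41 that the deposited values include, 24 were tested, 0 were called in either direction by limma and 19 had a difference below 0, with a median of -0.33. At an unadjusted limma p under 0.05 there were 8 lower and 0 higher, where 16.5% of all tested genes had such a p in either direction. Of these lectin genes edgeR called 0. Those that DESeq2 called lower included Klrb1b, the natural killer receptor gene Klrk1 and the endocytic receptor gene Ly75. The most abundant were Mrc2 and Mrc1, which encode collagen and mannose receptors, with means of 176 ± 38.0 and 178 ± 41.0 CPM for Mrc2 and of 68.7 ± 9.84 and 60.1 ± 11.3 CPM for Mrc1 (5xFAD, then Il3-/-5xFAD; SD, n = 3), and log2 differences of 0.01 and -0.19. The chromosome 6 neighbours of Clec7a, named for their position, were Clec1a at 8.96 ± 3.52 and 4.93 ± 1.69 CPM and Olr1 at 2.71 ± 1.18 and 1.55 ± 0.19 CPM. Their log2 differences were -0.71 ± 0.29 and -0.50 ± 0.28 (limma adjusted p of 0.251 and 0.409).

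Several members are also expressed by neutrophils and monocytes, whose markers moved with genotype in these libraries. Of 12 tested neutrophil markers 5 fell (S100a8, S100a9, Retnlg, Camp and Mmp9), 0 rose and 11 had a difference below 0, with a median of -1.95. For this list edgeR called 0 and DESeq2 7 lower. The exception in direction was Csf3r, at 661 ± 34.6 and 674 ± 37.4 CPM. The other 12 markers summed to 1170.0, 3152 and 2148 CPM in 5xFAD replicates 4, 5 and 6. In Il3-/-5xFAD replicates 1, 2 and 3 their sums were 737, 204 and 786 CPM. Ly6g, the defining neutrophil surface marker, was at 0.957 to 2.36 CPM in 5xFAD and had no read in Il3-/-5xFAD replicate 2. S100a9, the second in abundance after Csf3r, and S100a8, added as the gene of its partner subunit in calprotectin, averaged 653 ± 285 and 405 ± 189 CPM with interleukin-3 and 170 ± 93.4 and 96.6 ± 51.6 CPM without it (SD, n = 3). Of 6 tested monocyte markers 2 fell (Ly6c2 and Itgal) and 0 rose; the 7 with a row in the deposited values summed to 183, 289 and 283 CPM in 5xFAD and 184, 97.8 and 137 CPM in Il3-/-5xFAD, in replicate order.

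**Figure D3:**
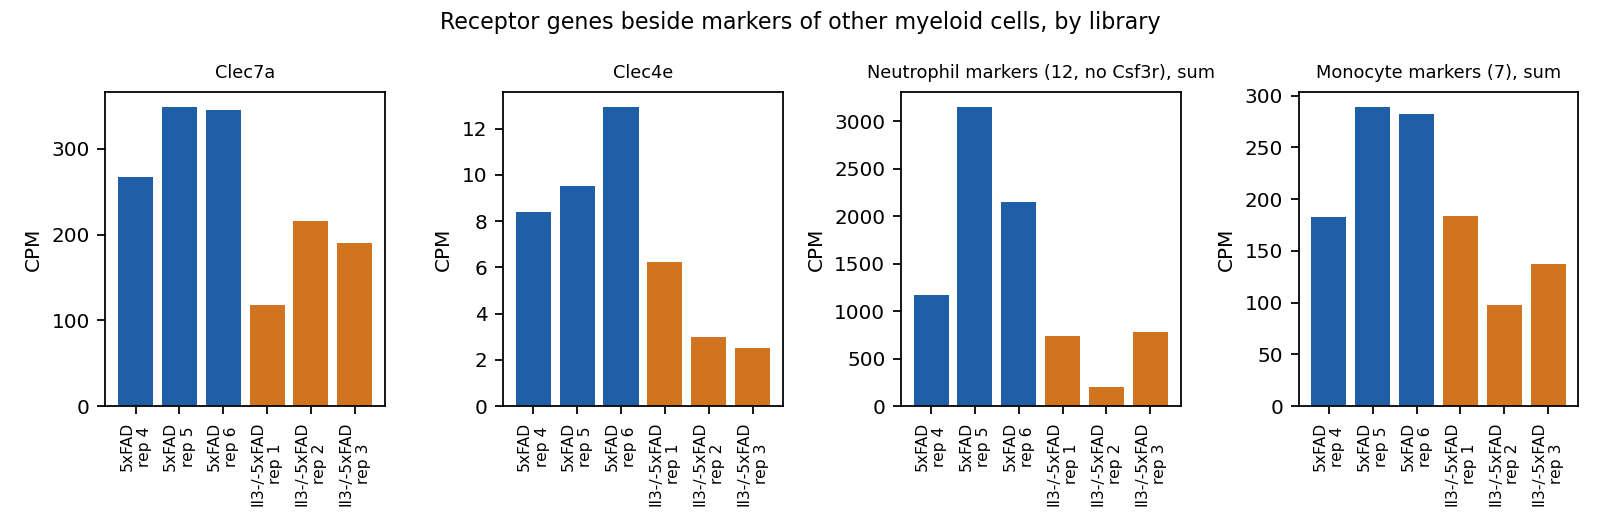
CPM in each library (bars from 0) of Clec7a, of Clec4e, of the summed 12 neutrophil markers other than Csf3r and of the summed 7 monocyte markers; blue bars are 5xFAD and orange bars Il3-/-5xFAD. Among the 5xFAD libraries, Clec7a and both sums are lowest in replicate 4 and highest in replicate 5. Clec7a and the monocyte sum differ little between 5xFAD replicates 5 and 6. In Il3-/-5xFAD, replicate 1 has the lowest Clec7a (118 CPM), the highest Clec4e (6.25 CPM) and the highest monocyte sum (184 CPM). Replicate 3 has the lowest Clec4e (2.52 CPM) and the highest neutrophil sum (786 CPM, against 737 CPM in replicate 1).

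In the 5xFAD libraries Clec7a and both marker sums had one order, lowest in replicate 4 and highest in replicate 5. Replicates 5 and 6 were close for Clec7a (349 and 346 CPM) and for the monocyte sum (289 and 283 CPM). In the Il3-/-5xFAD libraries Clec7a was lowest in replicate 1, where the monocyte sum was highest, and highest in replicate 2, where both sums were lowest. Clec4e was highest in Il3-/-5xFAD replicate 1, where the monocyte sum was highest too. It was lowest in replicate 3, where the neutrophil sum was highest by a small margin (786 CPM, against 737 CPM in replicate 1). Among the 5xFAD libraries Clec4e was highest in replicate 6. These orders rest on 3 libraries per group, and whether either gene followed the markers was not tested. With the mean log2 level of the 13 neutrophil markers as a covariate (67.9% of the variance of this mean was shared with genotype), the difference of Clec7a was -1.10 ± 0.32 (SE) and those of Clec4e and Clec4d were -0.83 ± 0.49 and -0.62 ± 0.60. The differences of the other 7 members lay above 0 in that fit, from 0.01 (Clec4a3) to 0.37 (Clec4n), with Clec12a at 0.13 ± 0.33. No member passed there (limma adjusted p of 0.999 for each). The part of neutrophil and monocyte RNA in the values of Clec7a, Clec4e, Clec4d, Clec12a and the other members was not tested. For the remaining cell types, 3 of 10 tested markers of T and natural killer cells (Cd3d, Cd3g and Lck) and 2 of 3 of the choroid plexus (Ttr and Enpp2) fell by limma. Of the T and natural killer cell markers edgeR called 2 lower (Cd3g and Lck) and DESeq2 6. Of the choroid plexus markers edgeR called 0, and DESeq2 called 2 lower, with Ttr but not Enpp2 among them. None of 5 dendritic cell, 7 border-associated macrophage, 2 B cell, 3 astrocyte, 3 oligodendrocyte and 1 neuronal markers passed by limma (6 lower and 0 higher at an unadjusted p under 0.05) or edgeR, and DESeq2 called 1 of them, the myelin gene Mbp, lower. The summed dendritic cell markers ranged from 50.1 to 50.7 CPM in 5xFAD and from 33.8 to 53.7 CPM in Il3-/-5xFAD, and those of border-associated macrophages from 96.6 to 124 and from 82.5 to 100.3 CPM.

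**Figure D4:**
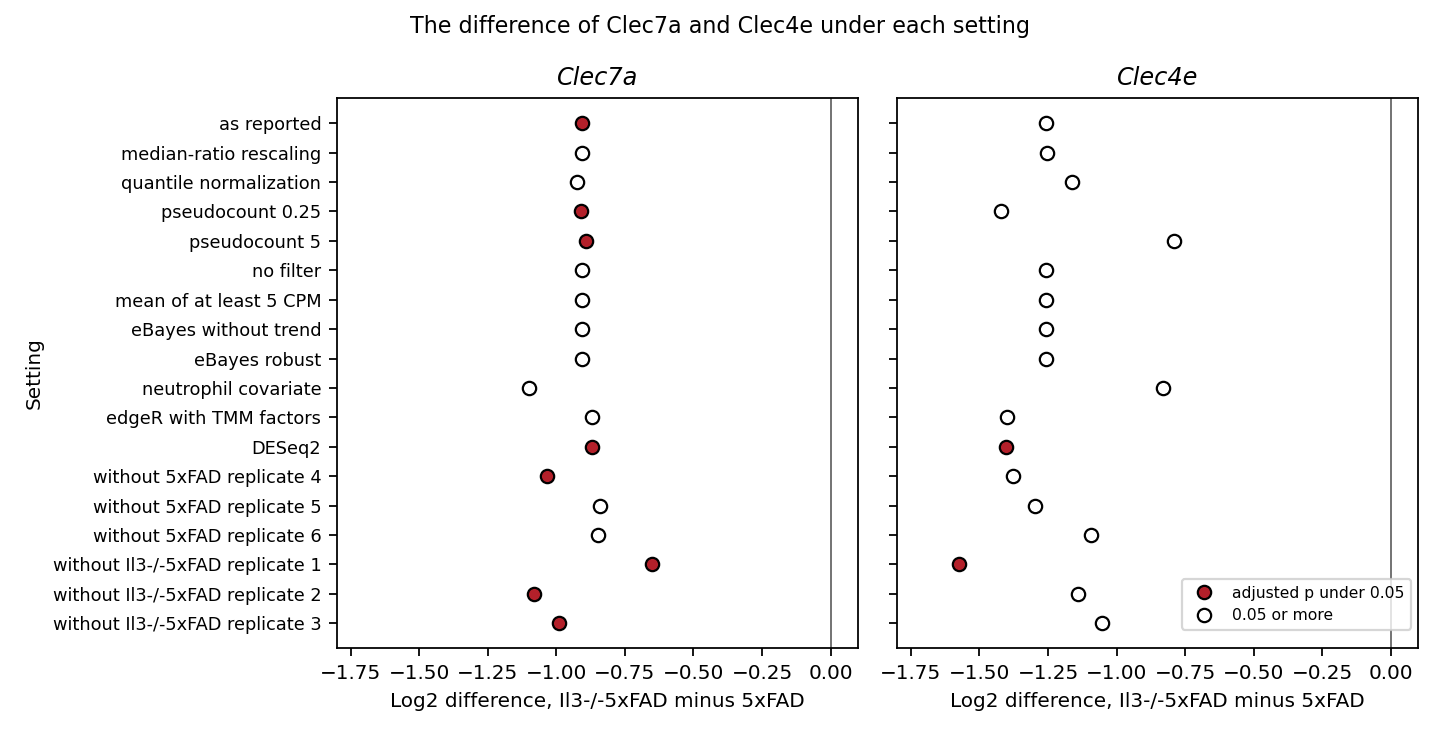
Log2 difference of Clec7a (left) and Clec4e (right), Il3-/-5xFAD minus 5xFAD, as reported and under 17 other settings; filled points have an adjusted p under 0.05. Clec7a stays between -1.10 and -0.65 and passes in 7 of the 17 settings, and Clec4e stays between -1.57 and -0.79 and passes in 2.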

How the data were processed

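RNA of sorted microglia was sequenced from polyA-selected directional libraries, per the labels' protocols. The deposited values were CPM, whose columns the authors scaled to a sum of 1000000 each. STAR, HTSeq, edgeR and mm9 stand in the submitters' processing notes without roles or versions; the sources used here do not name the annotation, the counting mode or the use of strand. Every CPM value was a whole multiple of 1 read (100% within a tolerance of 0.01 reads), so reads were recovered. The main test was limma 3.58.1 (R 4.3.3; lmFit, eBayes with trend, two-sided) on log2(CPM + 1), a scale that understates changes of low genes, with Benjamini-Hochberg adjustment over 11900 genes and a threshold of 0.05. As alternatives run on these reads, edgeR 4.0.16 (quasi-likelihood test, TMM) called 60 genes and DESeq2 1.42.0 called 605, against 105 by limma. The members and lists were chosen with earlier results of these data known. All 10 members were named; from the other lists came called genes, or the 2 most abundant of a list without calls, and fixed adaptor genes; any gene outside this rule is named as such. One monocyte marker (Chil3) was not found under its symbol, and 1 gene of the other lists is not reported here. The limma script was checked on simulated data. No pair of libraries within a group was as alike as sampling noise allows (chi-square per degree of freedom 23.9 or more). Transcript lengths came from GENCODE vM21.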

Additional observations from a re-analysis of the deposited data

How the results depend on the processing

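The direction of Clec7a, Clec4e and Clec4d held in every setting that tested them, and no member was called higher in any setting. The count of members called lower was 1 as reported, 1 with a pseudocount of 0.25 or 5, 2 by DESeq2 and 0 with median-ratio rescaling, quantile normalization, no filter, a stricter filter (mean of 5 CPM or more), eBayes without trend, robust eBayes, the neutrophil covariate and edgeR; without 1 library it ran from 0 to 2. The Clec7a difference was the same value with no filter and without trend, where its SE was 0.22 and 0.24 against 0.18. Over all genes, 105 were called as reported, 68 with median-ratio rescaling, 68 with the stricter filter, 8 with no filter, 10 without trend, 5 with the covariate, 60 by edgeR and 605 by DESeq2; without 1 library it was 15 (5xFAD replicate 6 left out) to 605 (Il3-/-5xFAD replicate 3 left out), with 38 without 5xFAD replicate 5 and 227 without 5xFAD replicate 4. The cause was not tested.

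Differences that turned positive were those of Clec4n (0.37), Clec5a (0.027), Clec4a2 (0.23), Clec12a (0.13), Clec4a1 (0.21), Clec4a3 (0.012) and Clec2d (0.070) with the covariate. Without 1 library, Clec4n ran from -0.64 to 0.054, Clec4a2 from -0.12 to 0.020 and Clec4a3 from -0.14 to 0.0034, with positive values without 5xFAD replicate 5 (Clec4n, Clec4a2) and without Il3-/-5xFAD replicate 2 (all 3). None of them was called. Clec4n and Clec4d were not tested under the stricter filter. Clec4n rests on 10 to 68 reads per library, which limits its precision. No paired analysis was possible because the groups share no replicate number.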
